A study of Homo sapiens with 28 samples.

Results

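The change of the labelled-to-total RNA ratio at 2 h after activation was measured in Jurkat cells, a line grown from a human T cell leukaemia. For every gene it is the log2 ratio of labelled to total RNA at 2 h less the same log2 ratio in unactivated cells, which is the interaction of RNA kind and time. It was computed for all 7485 genes of the table (7484 distinct symbols) from the 4 groups that the definition names, 12 of the 28 samples of the series. A positive value means that labelled RNA changed more upward, or less downward, than total RNA of the same gene.

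The 4 groups were RNA labelled with 4-thiouridine (4sU) at 2 h, total RNA at 2 h, 4sU-labelled RNA of unactivated cells and total RNA of unactivated cells, with 3 biological replicates each per the labels. Activation was with phorbol myristate acetate (PMA, 0.5 µg/ml), a direct activator of protein kinase C, and phytohaemagglutinin (PHA, 2 µg/ml), a plant lectin that triggers signalling through the T cell receptor. All samples come from 1 cell line in RPMI1640 medium and carry no other named alteration. Labelled RNA was bound to biotin-HPDP and captured on streptavidin beads, and ribosomal RNA was depleted before all libraries were made. How long cells were exposed to 4sU is not stated in the sources used here.

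Cells build 4sU, a uridine analogue, into RNA while it is being made, so the captured RNA holds recent transcripts, whereas total RNA holds recent and older transcripts together. A transcript that turns over quickly tends to have a high labelled-to-total ratio, and a long-lived one a low ratio. When transcription of a gene changes, its labelled RNA usually moves before its total RNA does, and total RNA follows at a pace set by the lifetime of the transcript. A change of the ratio can therefore accompany a change of synthesis, of decay or of processing, and the ratio by itself does not separate them.

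The files hold the authors' mean and SD of each group and no values of single samples, on a per-million-like scale. The group means summed to between 913919 and 1037463, and no source used here states how labelled values were scaled against total values. Each ratio therefore stands relative to the typical gene. Whether a labelled mean stood above, level with or below its total mean depends on this unstated scaling. The median coefficient of variation between replicates was 12.4% in labelled and 6.37% in total RNA at 2 h, against 18.2% in labelled and 7.91% in total RNA of unactivated cells. Of 14 T cell markers 8 were measured, with means in total RNA between 36.4 and 791 at 2 h and between 28.2 and 671 in unactivated cells. The means of CD3D, LCK, CD247, ZAP70 and CD28 were higher at 2 h, and those of BCL11B (237 ± 23.8 at 2 h, 300.2 ± 33.6 in unactivated cells), TCF7 and CD3G were lower. Of 30 markers of other cell types 4 were measured (VIM, AIF1, VCAN and THY1), which lay between 10.1 and 461 at 2 h and between 11.5 and 401 in unactivated cells in total RNA. The other markers were not analysed here, and their part in the results was not tested. GAPDH, a glycolytic enzyme often used as a standard, had a ratio change of 0.00 ± 0.25, and ELAVL1, the gene of the RNA-binding protein HuR, had -0.32 ± 0.18 (adjusted p = 0.376 by limma).

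Relative to unactivated cells, the ratio changed at 2 h for 199 of 7485 genes (2.66%) by limma at an adjusted p of 0.05, with 82 genes up (1.1%) and 117 down (1.56%). NFKB1 of the NF-kB family, the co-repressor genes RCOR1 and NAB1, and ITGB2 and ACTN1 of cell adhesion and the cytoskeleton were among the 15 largest rises. The recombinase genes RAG1 and RAG2, the lymphoid transcription factor gene IKZF2 and the glucose transporter gene SLC2A1 were among the 15 largest falls. At an unadjusted p of 0.05 the count was 1229. The median over all genes was -0.06, with quartiles of -0.27 and 0.15. In bulk RNA of this kind, fewer cells making a transcript and less transcript per cell cannot be told apart. The split of directions depended on scaling: centring each group on its median gave 155 up and 71 down (68.6% up), and quantile normalisation gave 163 up and 145 down (52.9% up), against 41.2% up on the deposited scale. These scalings moved the all-gene median by 0.10 and 0.05. With each gene's own SDs and no sharing of the spread between genes, 0 genes passed and 703 had an unadjusted p under 0.05. Of 58 called genes taken by the rule for named genes, 39 stayed called in all 12 other settings tried. Those that lost the call in at least 1 of these include ACER2, ATP5G1, C1orf86, HIST1H2AK, HIST1H4B, IFNGR2, JUNB, MALT1, MYB, MYC, PHF19, PKM, RGL2, THEM6, UPF3A, ZNF133 and ZNF318.

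Both parts of the ratio were read separately. Labelled RNA changed for 2282 genes (30.5%), 1231 up (16.4%) and 1051 down (14%), and total RNA for 533 genes (7.12%), 411 up (5.49%) and 122 down (1.63%). Of the 82 genes whose ratio rose, labelled RNA rose in 80. Total RNA also rose in 42 of these, and it was not called in the other 38. Of the 117 genes whose ratio fell, labelled RNA fell in 106. Among those, total RNA was not called in 88, fell in 16 and rose in 2. The counts of both RNA kinds depend on how the spread is estimated, since the spread is shared over groups that differ in it. With a spread weighted by group, chosen after seeing the data, labelled RNA was called for 1048 genes and total RNA for 1630. Which RNA kind had more calls thus depended on the spread. Relative to the geometric mean over the 10 groups, the variance was 1.45 times in labelled and 0.383 times in total RNA at 2 h, against 2.93 times in labelled and 0.586 times in total RNA of unactivated cells, whereas at 3 h labelled RNA had 1.04 and total RNA 1.16. With a separate spread for each RNA kind, total RNA rose in 51 and was not called in 29 of the genes with a rising ratio, and it was not called in 77, fell in 25 and rose in 15 of those with a falling ratio.

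**Figure D1:**
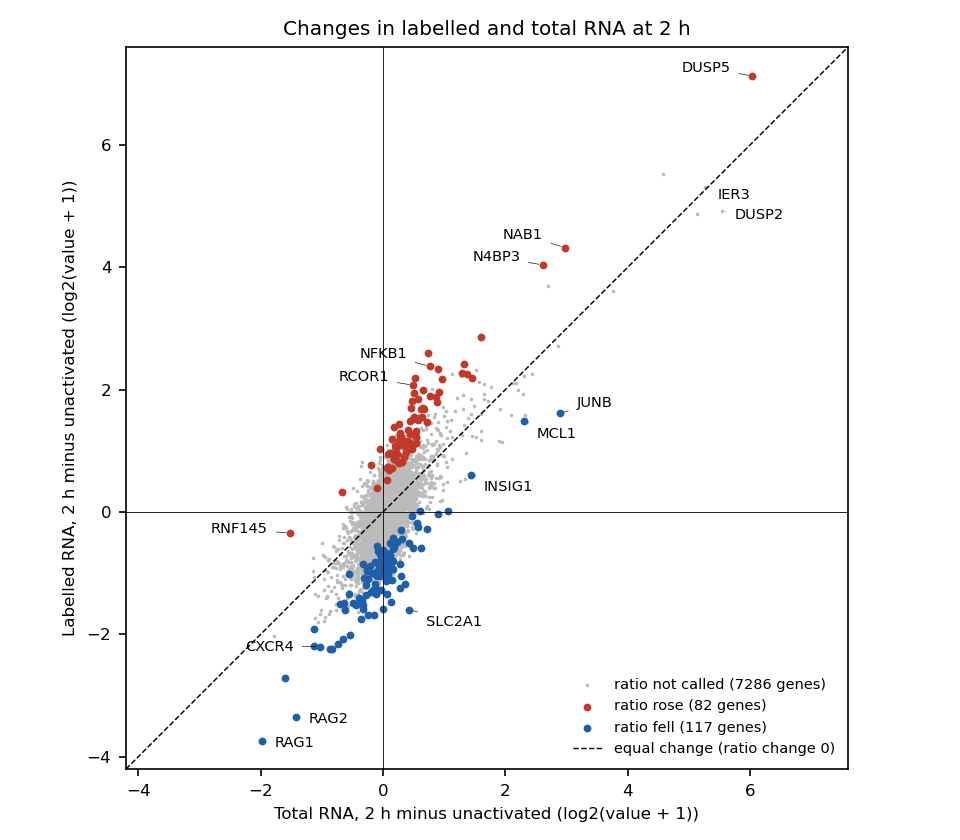
Change of labelled RNA (vertical axis) against change of total RNA (horizontal axis), each as 2 h minus unactivated on the log2(value + 1) scale, 1 point per gene for 7485 genes. The dashed line marks equal change; the 82 genes whose ratio rose (red) lie above it, and the 117 whose ratio fell (blue) lie below it, from RAG1 at the lower left to JUNB at the right.

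The genes whose ratio rose had a median change of 0.91, between 0.46 and 1.86. Their median log2 ratio was 0.81 at 2 h and -0.10 in unactivated cells, against 0.07 at 2 h and 0.15 in unactivated cells over all genes. The genes whose ratio fell had a median change of -0.95, between -2.02 and -0.45. Their median log2 ratio was -0.37 at 2 h and 0.63 in unactivated cells. Since the starting ratio enters the change itself, these medians describe the called genes and are not a test.

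NFKB1 had the smallest adjusted p of the table. It encodes p105 and p50 of the NF-kB family. NFKB1 averaged 434 ± 8.68 in labelled and 172 ± 4.56 in total RNA at 2 h, against 82.5 ± 9.49 in labelled and 100.5 ± 5.73 in total RNA of unactivated cells. Labelled RNA stood above total RNA at 2 h and below it in unactivated cells, and the ratio rose by 1.61 ± 0.14 (adjusted p = 1.27e-09 by limma), with changes of 2.38 ± 0.10 in labelled and 0.77 ± 0.10 in total RNA. RCOR1, the CoREST co-repressor that joins histone deacetylases to DNA-bound factors, averaged 476 ± 28.7 in labelled and 88.9 ± 7.54 in total RNA at 2 h, against 112 ± 13.7 in labelled and 62.8 ± 5.23 in total RNA of unactivated cells. The ratio of RCOR1 rose by 1.58 ± 0.19 (adjusted p = 1.17e-06). NAB1, a co-repressor of the EGR transcription factors, averaged 1996 ± 139 in labelled and 656 ± 48.2 in total RNA at 2 h, against 98.8 ± 30.1 in labelled and 82.3 ± 5.15 in total RNA of unactivated cells. Its labelled and total RNA were nearly level before activation and far apart at 2 h, a ratio rise of 1.34 ± 0.18 (adjusted p = 7.89e-06).

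DUSP5, a nuclear phosphatase that inactivates ERK, was the gene with the largest changes of both RNA kinds among those called. DUSP5 averaged 747 ± 75.7 in labelled and 268 ± 31.8 in total RNA at 2 h, against 4.36 ± 0.728 in labelled and 3.10 ± 0.967 in total RNA of unactivated cells. Its labelled RNA rose by 7.13 ± 0.14 and its total RNA by 6.04 ± 0.14, which left a ratio rise of 1.09 ± 0.19 (adjusted p = 0.000508 by limma). N4BP3, which binds the ubiquitin ligase NEDD4, averaged 50.2 ± 3.42 in labelled and 13.8 ± 2.57 in total RNA at 2 h, against 2.12 ± 0.738 in labelled and 1.42 ± 0.287 in total RNA of unactivated cells. The ratio of N4BP3 rose by 1.42 ± 0.31, from means near the lowest of the table before activation. MALT1, a protease of the complex that carries T cell receptor signals to NF-kB, rose by 0.85 ± 0.23 in ratio, and SIT1, a membrane adaptor that dampens receptor signalling, by 1.25 ± 0.30. PHF19, a Polycomb-associated histone reader, had a ratio rise of 1.20 ± 0.27.

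Rises were also called for surface and cytoskeletal genes. TMSB4X, the actin-monomer-binding thymosin beta 4, averaged 861 ± 35.4 in labelled and 813 ± 78.6 in total RNA at 2 h, against 232 ± 44.02 in labelled and 477 ± 41.6 in total RNA of unactivated cells. Labelled RNA was less than total RNA before activation and level with it at 2 h, and the ratio rose by 1.12 ± 0.16 (adjusted p = 1.21e-05 by limma). TMSB4X has near-identical copies in the genome, and how the authors' counting treated shared reads is not stated, so its values are uncertain. ACTN1, alpha-actinin, which cross-links actin filaments, averaged 114 ± 2.21 in labelled and 57.1 ± 4.96 in total RNA at 2 h, against 27.9 ± 2.75 in labelled and 35.9 ± 2.09 in total RNA of unactivated cells. The ratio of ACTN1 rose by 1.33 ± 0.22. ITGB2, the beta subunit of the LFA-1 integrin, averaged 57.9 ± 6.36 in labelled and 36.4 ± 1.21 in total RNA at 2 h, against 15.7 ± 2.71 in labelled and 25.8 ± 0.486 in total RNA of unactivated cells. The ratio of ITGB2 rose by 1.34 ± 0.24. CD82, a tetraspanin of the plasma membrane, averaged 41.8 ± 10.1 in labelled and 20.8 ± 1.27 in total RNA at 2 h, against 7.44 ± 0.685 in labelled and 10.7 ± 0.809 in total RNA of unactivated cells. The ratio of CD82 rose by 1.45 ± 0.24 (adjusted p = 0.000196). For ITGB2 the labelled mean stood below the total mean before activation and above it at 2 h, and the same was seen for ACTN1 and CD82.

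The other large rises were in TMC6, a transmembrane channel-like protein (1.86 ± 0.28), PALD1, which has phosphatase-like domains (1.67 ± 0.27), ARHGAP31, a GTPase activator for Rac and Cdc42 (1.43 ± 0.26), RGL2, an exchange factor for Ral (1.28 ± 0.36), CISD3, a mitochondrial iron-sulphur protein (1.24 ± 0.27), and C1orf86 (1.22 ± 0.35). TMC6 averaged 46.8 ± 3.18 in labelled and 10.2 ± 0.975 in total RNA at 2 h, against 6.88 ± 1.04 in labelled and 5.68 ± 1.87 in total RNA of unactivated cells, and its rise was the largest of the table. Smaller rises came from IFNGR2, a chain of the interferon gamma receptor (0.74 ± 0.19), UQCRC2, a subunit of respiratory complex III (0.91 ± 0.18), and PKM, pyruvate kinase (0.50 ± 0.12). ZNF133, a KRAB zinc finger gene, and the ubiquitin ligase gene RNF145 were the 2 genes whose ratio rose while total RNA fell and labelled RNA was not called. ZNF133 averaged 28.3 ± 0.697 in labelled and 8.58 ± 1.07 in total RNA at 2 h, against 22.2 ± 8.64 in labelled and 14.2 ± 2.05 in total RNA of unactivated cells. The ratio of ZNF133 rose by 1.00 ± 0.28. RNF145, chosen after its values were seen, had a ratio rise of 1.17 with -0.34 in labelled and -1.51 in total RNA.

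**Figure D2:**
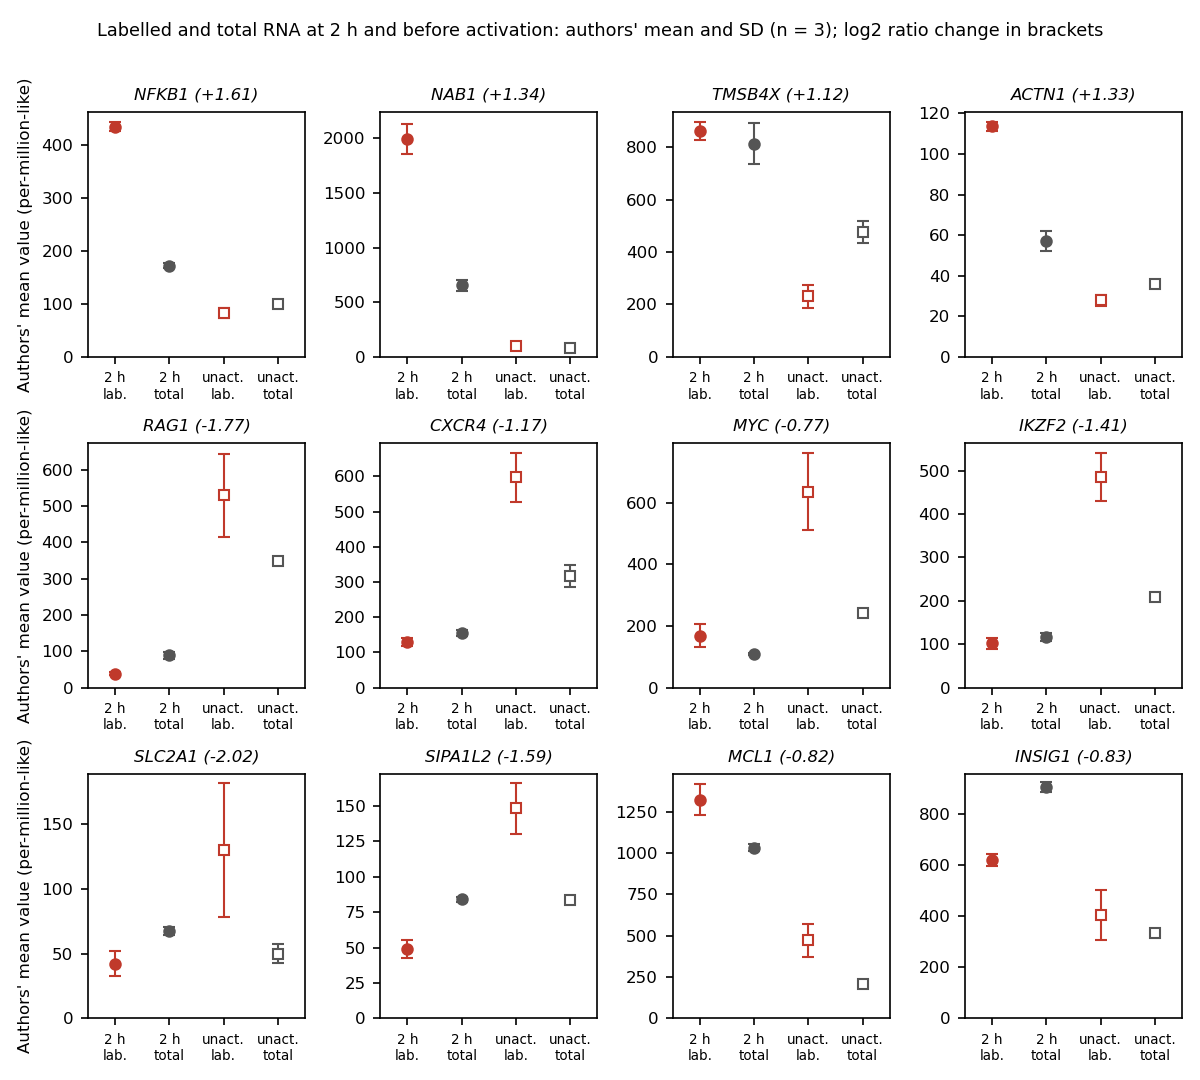
Authors' mean and SD (n = 3 per group) of labelled and total RNA at 2 h (filled circles) and in unactivated cells (open squares) for 12 genes; the vertical axes start at 0 and differ between genes, and the number beside each name is the log2 ratio change. In the top row the labelled mean overtakes the total mean or the gap widens at 2 h, in the middle row labelled RNA falls further than total RNA, and in the bottom row total RNA keeps level or rises while the ratio falls.

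The genes RAG1 and RAG2, which encode the recombinase that cuts antigen receptor gene segments, had falls of the ratio in which both RNA kinds fell. RAG1 averaged 38.6 ± 3.03 in labelled and 88.5 ± 9.52 in total RNA at 2 h, against 529 ± 114 in labelled and 349 ± 5.96 in total RNA of unactivated cells. Labelled RNA was above total RNA before activation and below it at 2 h, a ratio fall of -1.77 ± 0.23 (adjusted p = 4.76e-06 by limma), with -3.74 ± 0.16 in labelled and -1.97 ± 0.16 in total RNA. RAG2 averaged 10.7 ± 2.58 in labelled and 17.8 ± 2.39 in total RNA at 2 h, against 117 ± 33.8 in labelled and 49.5 ± 5.21 in total RNA of unactivated cells. The ratio of RAG2 changed by -1.92 ± 0.34 (adjusted p = 0.00037). Both labelled means at 2 h lay under their total means, in the reverse order of unactivated cells. The recombinase serves V(D)J recombination. Of 8 measured members of the list for this process, these 2 fell and the other 6 were not called, where 1.56% of all genes fell. The list includes CD1E, which is not a gene of this process.

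Falls were also called for some transcription factor genes of the lymphoid lineage. IKZF2, the Ikaros family member Helios, averaged 102 ± 11.9 in labelled and 117 ± 10.04 in total RNA at 2 h, against 486 ± 55.1 in labelled and 209 ± 3.65 in total RNA of unactivated cells. The ratio of IKZF2 changed by -1.41 ± 0.17 (adjusted p = 1.15e-06 by limma). IKZF1, Ikaros itself, averaged 167 ± 9.34 in labelled and 252 ± 6.92 in total RNA at 2 h, against 469 ± 35.04 in labelled and 355 ± 20.8 in total RNA of unactivated cells. The ratio of IKZF1 changed by -0.99 ± 0.14. ETS1, an ETS family factor of lymphocytes, averaged 224 ± 16.5 in labelled and 398 ± 26.2 in total RNA at 2 h, against 481 ± 56.996 in labelled and 472 ± 27.5 in total RNA of unactivated cells. The ratio of ETS1 changed by -0.85 ± 0.16, in which total RNA was not called (adjusted p = 0.233). Of 19 measured transcription factors of T cell identity, 4 fell, the fourth being MYB (-0.45 ± 0.13), 0 rose and 15 were not called, where 1.56% of all genes fell. Under median centring 1 of the 19 rose and 3 fell, with MYB at an adjusted p of 0.135 by limma, and under quantile normalisation 5 fell. MYC, the growth-driving transcription factor, averaged 169 ± 36.3 in labelled and 110.1 ± 3.78 in total RNA at 2 h, against 636 ± 125 in labelled and 243 ± 5.94 in total RNA of unactivated cells. Its labelled RNA fell by 1.91 ± 0.15 and its total RNA by 1.13 ± 0.15 on the log2 scale, so that the ratio changed by -0.77 ± 0.21 (adjusted p = 0.0326, and 0.0709 under median centring), while labelled RNA stayed above total RNA at both times.

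Falls were also called for 2 of 15 measured cytokines and activation receptors, CXCR4 and SELPLG, and for 2 of 38 genes of T cell receptor signalling, RASGRP1 and SLA, and each list also had 2 rises. CXCR4, the chemokine receptor for CXCL12, averaged 129 ± 11.9 in labelled and 155 ± 9.46 in total RNA at 2 h, against 598 ± 69.6 in labelled and 316 ± 31.4 in total RNA of unactivated cells. The ratio of CXCR4 changed by -1.17 ± 0.19 (adjusted p = 0.000104 by limma). SELPLG, the selectin ligand PSGL-1, averaged 19.1 ± 3.42 in labelled and 51.4 ± 5.04 in total RNA at 2 h, against 88.99 ± 3.002 in labelled and 86.4 ± 5.84 in total RNA of unactivated cells. The ratio of SELPLG changed by -1.42 ± 0.26. RASGRP1, the diacylglycerol-responsive exchange factor that loads Ras after receptor engagement, averaged 60.7 ± 6.54 in labelled and 117 ± 10.96 in total RNA at 2 h, against 167 ± 17.5 in labelled and 149 ± 7.97 in total RNA of unactivated cells. The ratio of RASGRP1 changed by -1.09 ± 0.18. The linear ratio of labelled to total RNA was 0.524 at 2 h and 1.12 in unactivated cells for RASGRP1, and 0.384 at 2 h and 1.03 in unactivated cells for SELPLG. SLA, a Src-like adaptor that restrains receptor signalling, changed by -0.89 ± 0.17, CD1D, which presents lipids, by -1.47 ± 0.37, and ENDOD1, an endonuclease-domain protein, by -1.43 ± 0.19. ENDOD1 averaged 97.2 ± 11.9 in labelled and 227 ± 11.2 in total RNA at 2 h, against 413 ± 84.2 in labelled and 356 ± 15.2 in total RNA of unactivated cells.

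The most frequent pattern among called genes was a fall of the ratio and of labelled RNA with total RNA not called. It was seen in 88 genes, and in 77 with a separate spread for each RNA kind. SLC2A1, the glucose transporter GLUT1, had the largest fall of the table and averaged 42.4 ± 9.98 in labelled and 67.6 ± 2.96 in total RNA at 2 h, against 129.8 ± 51.7 in labelled and 50.1 ± 7.46 in total RNA of unactivated cells. The labelled SD in unactivated cells was wide for this gene, and the ratio change was -2.02 ± 0.30 (adjusted p = 3.45e-05 by limma). SIPA1L2, a Rap GTPase activator, averaged 48.8 ± 6.53 in labelled and 84.2 ± 1.81 in total RNA at 2 h, against 148 ± 18.1 in labelled and 83.9 ± 2.80 in total RNA of unactivated cells. The ratio of SIPA1L2 changed by -1.59 ± 0.21. The means of total RNA differed by less than 1 SD between 2 h and unactivated cells for SIPA1L2.

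Sterol and fatty acid genes were among these. MVK, mevalonate kinase of sterol synthesis, averaged 4.30 ± 2.06 in labelled and 5.99 ± 0.759 in total RNA at 2 h, against 13.7 ± 0.796 in labelled and 5.39 ± 0.698 in total RNA of unactivated cells. The ratio of MVK changed by -1.60 ± 0.37 (adjusted p = 0.00947 by limma) at low values. SCD, the desaturase that makes oleate, averaged 203 ± 19.98 in labelled and 372 ± 15.1 in total RNA at 2 h, against 403 ± 32.2 in labelled and 419 ± 15.2 in total RNA of unactivated cells. The ratio of SCD changed by -0.82 ± 0.15 (adjusted p = 0.000475). The list of cholesterol synthesis and uptake also holds fatty acid genes, SCD among them. Of its 26 measured members, 4 fell (MVK, SCD and INSIG1, described next, among them), 0 rose and 22 were not called. Over all genes 1.56% fell. Changes of the ratio were also called for PTDSS2, a phosphatidylserine synthase (-1.55 ± 0.36), ACER2, a ceramidase (-1.43 ± 0.40), MAP2K6, a kinase of p38 (-1.53 ± 0.29), MVB12B of the ESCRT-I sorting complex (-1.52 ± 0.32), the growth factor gene PDGFC (-1.38 ± 0.25), THEM6 (-1.40 ± 0.39), ATP5G1, a subunit of ATP synthase (-1.34 ± 0.34), and UPF3A of nonsense-mediated decay (-1.18 ± 0.33).

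For 12 genes total RNA rose while the ratio fell: JUNB, SRF, INSIG1, MCL1, HK2, CPEB4, YRDC, GMEB2, SLC25A25, TMEM39A, MED17 and SOX4. Labelled RNA rose in 3 of them (JUNB, INSIG1 and MCL1), fell in 2 (CPEB4 and HK2) and was not called in the other 7. MCL1, a survival factor of the BCL2 family, averaged 1322 ± 94.8 in labelled and 1032 ± 22.2 in total RNA at 2 h, against 472 ± 99.7 in labelled and 208 ± 16.8 in total RNA of unactivated cells. Both RNA kinds rose, total RNA by 2.31 ± 0.11 and labelled RNA by 1.49 ± 0.11, and the ratio changed by -0.82 ± 0.15 (adjusted p = 0.000657 by limma). INSIG1, which holds the sterol sensor SCAP and with it SREBP in the endoplasmic reticulum, averaged 619.6 ± 23.1 in labelled and 907 ± 19.4 in total RNA at 2 h, against 405 ± 98.7 in labelled and 333 ± 12.5 in total RNA of unactivated cells. The ratio of INSIG1 changed by -0.83 ± 0.16 (adjusted p = 0.00189). JUNB, a subunit of the transcription factor AP-1, averaged 78.2 ± 24.1 in labelled and 76.04 ± 1.87 in total RNA at 2 h, against 24.9 ± 12.1 in labelled and 9.40 ± 2.04 in total RNA of unactivated cells. The ratio of JUNB changed by -1.28 ± 0.33 (adjusted p = 0.0243, and 0.118 under quantile normalisation). All 3 had labelled RNA above total RNA before activation, and INSIG1 had it below at 2 h.

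SRF, the serum response factor that drives actin and early response genes, averaged 53.3 ± 1.49 in labelled and 101 ± 6.96 in total RNA at 2 h, against 54.4 ± 1.81 in labelled and 53.7 ± 4.11 in total RNA of unactivated cells. Its labelled RNA kept level while its total RNA rose by 0.90 ± 0.13, and the ratio changed by -0.93 ± 0.19 (adjusted p = 0.00278 by limma). HK2, the hexokinase that commits glucose to glycolysis, averaged 107 ± 18.3 in labelled and 174 ± 5.58 in total RNA at 2 h, against 151 ± 6.53 in labelled and 129.7 ± 2.63 in total RNA of unactivated cells. Labelled RNA fell by 0.50 ± 0.12 and total RNA rose by 0.42 ± 0.12 on the log2 scale, a ratio change of -0.92 ± 0.18 (adjusted p = 0.00129). HK2 and SLC2A1 were the 2 falls among 22 measured genes of glycolysis and glucose entry, with PKM as the 1 rise, where 1.56% of all genes fell and 1.1% rose.

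The promoters of 4 genes with a falling ratio are shown because they carry a TATA box or E-box upstream of the start. The genes were chosen after their values were seen. Sequences are from RefSeq on GRCh38.p14, run 5′ to 3′ along the gene's own strand over the 200 bases before its start, and have in capitals the TATA box (TATAAA), the E-box (CACGTG) and a kappaB-type match, searched on both strands; no shown match overlaps another. They lie at chr19:12791286-12791485 for JUNB, chr7:155297678-155297877 for INSIG1, chr2:74834970-74835169 for HK2 and chr1:42958869-42959068 for SLC2A1.
JUNB: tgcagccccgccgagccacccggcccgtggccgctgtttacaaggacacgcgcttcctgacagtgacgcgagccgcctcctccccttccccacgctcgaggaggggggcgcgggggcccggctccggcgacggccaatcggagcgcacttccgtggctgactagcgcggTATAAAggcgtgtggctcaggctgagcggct
INSIG1: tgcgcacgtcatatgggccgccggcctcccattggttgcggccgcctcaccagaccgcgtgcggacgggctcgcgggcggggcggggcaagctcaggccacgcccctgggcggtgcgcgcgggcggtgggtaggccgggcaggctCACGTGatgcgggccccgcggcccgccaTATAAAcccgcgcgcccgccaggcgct
HK2: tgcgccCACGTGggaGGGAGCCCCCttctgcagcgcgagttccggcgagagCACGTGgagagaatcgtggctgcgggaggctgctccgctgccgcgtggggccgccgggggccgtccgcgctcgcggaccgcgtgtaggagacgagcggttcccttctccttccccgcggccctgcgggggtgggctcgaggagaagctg
SLC2A1: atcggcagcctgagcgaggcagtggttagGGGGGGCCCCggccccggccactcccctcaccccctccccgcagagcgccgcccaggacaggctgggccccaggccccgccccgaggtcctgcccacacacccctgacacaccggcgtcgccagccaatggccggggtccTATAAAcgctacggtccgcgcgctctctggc
The TATA box begins 31 bases upstream of the start in JUNB and SLC2A1 and 27 bases upstream in INSIG1, while HK2 has E-boxes that begin 194 and 149 bases upstream and INSIG1 has 1 that begins 55 bases upstream. Within 250 bases upstream, TATAAA was found in 8 of 89 promoters of genes whose ratio fell (8.99%), in 5 of 67 of those whose ratio rose (7.46%), in 4.96% of the 5843 measured genes with a promoter in the table and in 11.4% of all 27305 promoters. CACGTG was found in 8.99% of promoters with a falling ratio and in 7.46% with a rising one, beside 9.12% of measured genes and 6.28% of all promoters. The kappaB-type match was found in 12.4% and 13.4%, beside 10.2% of measured genes and 9.49% of all promoters. The AP-1 motif TGANTCA was found in 3.37% and 5.97%, beside 3.73% and 6.84%. A match is a description of the letters and not evidence of binding.

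Several genes that rose strongly in both RNA kinds were not called in ratio. IER3, an early gene that protects from cell death, averaged 459.8 ± 72.2 in labelled and 213 ± 5.94 in total RNA at 2 h, against 10.6 ± 4.23 in labelled and 4.59 ± 0.504 in total RNA of unactivated cells. Its changes were 5.32 ± 0.17 in labelled and 5.26 ± 0.17 in total RNA, and the ratio change was 0.06 ± 0.24 (adjusted p = 0.938 by limma). DUSP2, a phosphatase of MAP kinases, averaged 2181 ± 259 in labelled and 936 ± 28.2 in total RNA at 2 h, against 71.1 ± 16.2 in labelled and 19.2 ± 2.90 in total RNA of unactivated cells. The ratio change of DUSP2, -0.62 ± 0.18, was not called (adjusted p = 0.0631 by limma). It was called with a pseudocount of 0.1 (adjusted p = 0.0439), a separate spread per RNA kind (0.0221) and an assumed correlation of 0.5 (0.000459), and it was -0.03 under quantile normalisation (0.963). CD83, a marker of activated lymphocytes, averaged 408 ± 26.1 in labelled and 353 ± 10.1 in total RNA at 2 h, against 32.5 ± 5.43 in labelled and 24.97 ± 2.45 in total RNA of unactivated cells. The ratio change of CD83 was -0.16 ± 0.18. The values of IER3 and CD83 depended on scaling: under quantile normalisation they were 0.73 and 0.29, and IER3 had -0.08 with a pseudocount of 0.1, all not called. The inhibitors of NF-kB TNFAIP3 (-0.18 ± 0.24) and NFKBIA (-0.43 ± 0.27) and the cell cycle inhibitor CDKN1A (-0.16 ± 0.28) were not called either. ACTB (0.15 ± 0.22) and HSPA8 were also not called in ratio, but their total RNA was not called as rising. HSPA8, a constitutive HSP70 chaperone, averaged 7405 ± 1146 in labelled and 7016 ± 747 in total RNA at 2 h, against 4561 ± 623 in labelled and 6527 ± 618 in total RNA of unactivated cells. The ratio change of HSPA8 was 0.59 ± 0.17 with an adjusted p of 0.0506 by limma. It was called in 7 of 13 alternatives, among them median centring (0.70, adjusted p = 0.0167), and the lowest adjusted p was 5.17e-05 (assumed correlation of 0.5). HSPA8 had the highest mean of all genes in each of the 4 groups. Quantile normalisation gives the top gene of every group the same value, so its change there was 0.00 by construction and says nothing about HSPA8. A missed threshold does not show equal ratios. The median SE of a ratio change was 0.223, and the SE differed between genes. The smallest change called was -0.45, while genes not called had changes from -1.24 to 1.2. Changes of larger size than the smallest one called could therefore also go uncalled.

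Gene lists were read by counts and medians, beside 1.1% of all genes that rose, 1.56% that fell and 3181 of 7485 with positive values. Of 36 measured genes of the actin cytoskeleton and SRF targets, 4 rose, 2 fell and 30 were not called, with a median of 0.20 beside -0.06 over all genes and positive values in 26. The rises were ACTN1, TMSB4X, LASP1 (0.69) and ARPC2 (0.54), and SRF was among the falls, with LASP1 and ARPC2 named after their values were seen. The positive median held under median centring (0.30) and quantile normalisation (0.26). Of 9 immediate early genes, which need no new protein for their induction, 3 fell (JUNB, SRF and MYC), 0 rose and 6 were not called, with a median of -0.38. Under the same scalings the median was -0.28 and -0.14, with 2 falls in each. Of 15 NF-kB targets and feedback genes, NFKB1 rose, 0 fell and 14 were not called (median 0.08), although labelled RNA rose in 12 and total RNA in 9 of the 15, where labelled RNA rose in 16.4% and total RNA in 5.49% of all genes. Of 38 genes of the T cell receptor and its proximal signalling, 2 rose (MALT1 and SIT1), 2 fell (RASGRP1 and SLA) and 34 were not called (median 0.06).

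Clustered histone genes, whose mRNAs end without a poly(A) tail, had negative values in 37 of 37 measured members, beside 57.5% of all genes. Their median was -0.44 and their range -1.24 to -0.09, and 2 of them passed the test, HIST1H2AK (-0.99 ± 0.29) and HIST1H4B (-0.93 ± 0.26). HIST1H4B averaged 82.8 ± 14.3 in labelled and 90.95 ± 18.9 in total RNA at 2 h, against 171 ± 34.8 in labelled and 98.1 ± 9.84 in total RNA of unactivated cells. Labelled RNA fell in 19 of the 37, and total RNA was called in none of them by limma, where labelled RNA fell in 14% and total RNA was called in 7.12% of all genes. Under median centring 36 of 37 values were negative and 0 genes were called, and under quantile normalisation 37 of 37 were negative and 1 was called. Histone genes are near-identical copies of each other, so counts may be split between them in ways not stated by the authors. Genes of DNA replication, which is coupled to histone supply, had a median of -0.19 with 39 of 50 values negative, 0 called by limma and 13 (26%) at an unadjusted p under 0.05, where 16.4% of all genes lay under it. Under quantile normalisation 1 of them was called.

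Of 39 genes that belong to the unfolded protein response or the integrated stress response, which balance protein folding against synthesis, 30 had negative values and 0 were called (median -0.31), with 5 (12.8%) at an unadjusted p under 0.05 by limma, where 16.4% of all genes lay under it. Under quantile normalisation 1 of them fell. Of 15 cytokines and activation receptors, 2 rose (CD82 and IFNGR2), 2 fell (CXCR4 and SELPLG) and 11 were not called (median -0.08), while median centring and quantile normalisation each gave 4 rises and 2 falls, with medians of 0.02 and 0.17. Among 8 MAP kinase feedback inhibitors DUSP5 rose, 0 fell and 7 were not called (median -0.41), and under these scalings 2 rose, with medians of -0.31 and -0.11. Among 21 regulators of apoptosis 1 rose, MCL1 fell and 19 were not called. Respiratory chain genes had 1 rise (UQCRC2) and 1 fall (ATP5G1) in 60, zinc finger genes 1 rise (ZNF133) and 1 fall (ZNF318, -0.95 ± 0.26) in 238, and the mRNA decay machinery 1 fall (UPF3A) in 55, all near or below the 2.66% of all genes that were called. Under median centring the zinc finger and mRNA decay lists each had 3 rises and 0 falls. Housekeeping lists had 0 calls: 77 cytosolic ribosomal proteins (median -0.08), 58 mitochondrial ribosomal proteins (-0.02), 91 ribosome biogenesis factors (-0.05), 60 translation factors (-0.06), 35 aminoacyl-tRNA synthetases (-0.03), 47 core spliceosome genes (-0.01), 32 SR and hnRNP proteins (-0.08), 32 proteasome subunits (0.11) and 39 heat shock genes and chaperones (0.01). Of these 471 genes, 37 (7.86%) had an unadjusted p under 0.05 by limma, where 16.4% of all genes did. Under median centring 1 ribosome biogenesis factor and 1 heat shock gene rose. There were also 0 calls among 22 genes of the NFAT pathway (0.02), 12 hypoxia-linked genes (-0.16), 60 mitosis genes (-0.10), 11 p53 targets (-0.05), 10 interferon-stimulated genes (-0.11) and 6 nuclear-retained RNAs (0.02), where 19 of 121 genes (15.7%) had an unadjusted p under 0.05 by limma, near the 16.4% of all genes. Under quantile normalisation 1 mitosis gene fell, and 1 p53 target rose under both scalings. Medians this near 0 can turn sign with the scaling, which moved the all-gene median itself by up to 0.10.

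**Figure D3:**
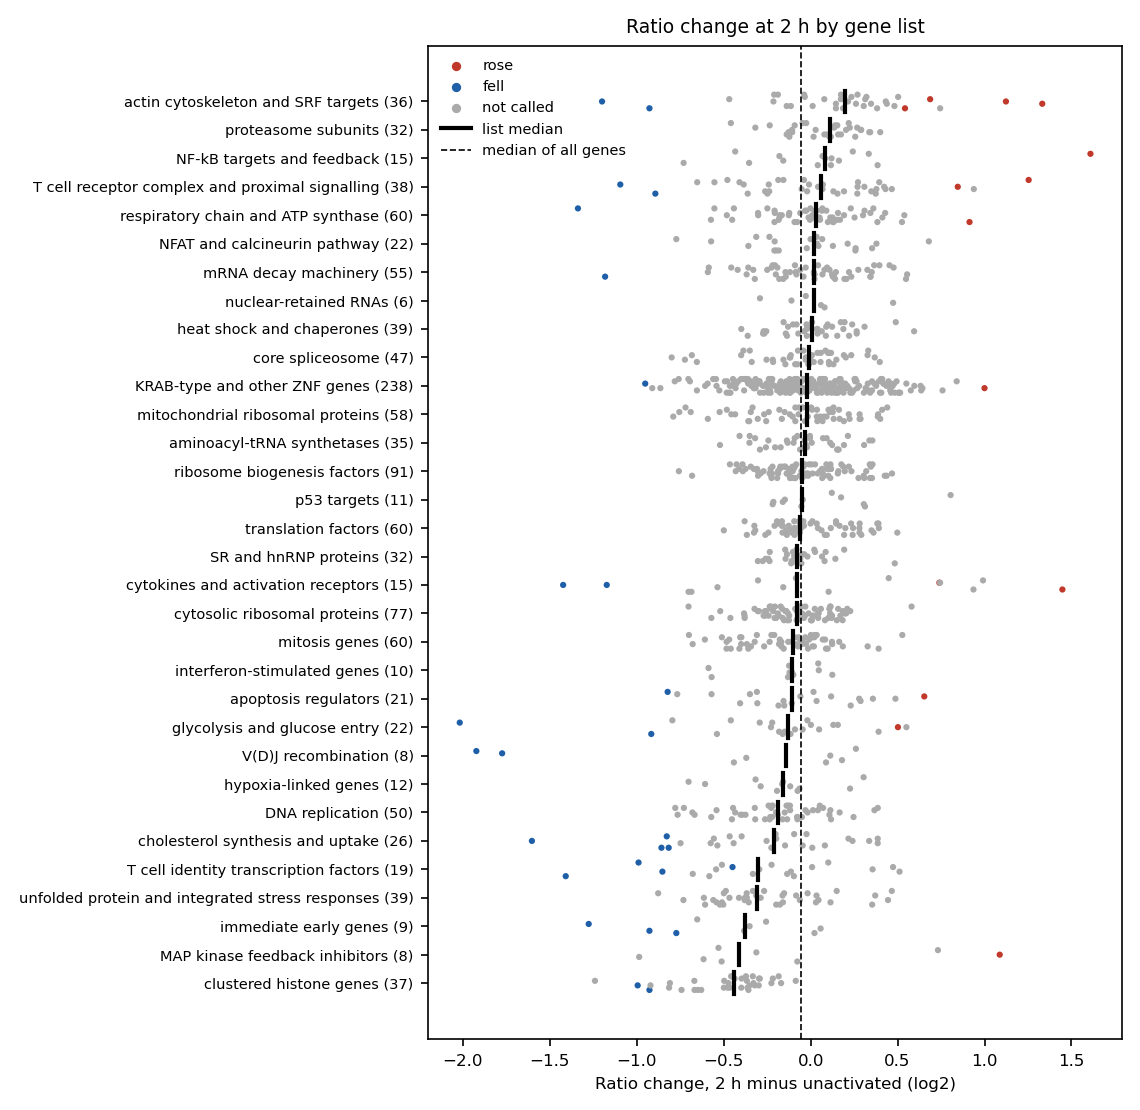
Ratio change at 2 h (log2, horizontal axis) of each measured member of 32 gene lists, ordered by list median (black bars), with member counts in brackets and the dashed line at the all-gene median of -0.06. Points are red where the ratio rose, blue where it fell and grey where it was not called; all 37 histone genes lie below 0 on the deposited scale (36 under median centring), where the actin list has the highest median at 0.20.

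The same ratio was read at 1, 3 and 4 h, each against the same unactivated samples, so the 4 comparisons share their controls and only 2 samples stand behind each group at 1 h. The ratio changed for 24 genes at 1 h (0.321%), 193 at 3 h (2.58%) and 218 at 4 h (2.91%). The genes that rose at 2 h had medians of 0.40, 0.91, 0.58 and 0.21 at 1, 2, 3 and 4 h, and those that fell had -0.42, -0.95, -0.69 and -0.39. Because they were picked at 2 h, a value nearer 0 at the other hours is partly a matter of that choice.

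In direct tests, the ratio at 2 h differed from that at 1 h for 42 genes (0.561%), from that at 3 h for 38 genes (0.508%) and from that at 4 h for 427 genes (5.7%). Single genes followed different courses. NFKB1 had ratio changes of 1.09, 1.61, 0.17 and -0.41 at 1, 2, 3 and 4 h, and its ratio at 2 h lay above that at 4 h by 2.02 ± 0.14 (adjusted p = 1.24e-12 by limma). NAB1 had 1.08, 1.34, 0.08 and -0.86, with 2 h above 4 h by 2.21 ± 0.18 (adjusted p = 5.59e-11), and RCOR1 had 0.46, 1.58, 0.58 and -0.38. Against these, CD82 had 1.59, 1.45, 1.28 and 1.18 and TMSB4X 1.13, 1.12, 1.27 and 0.86. For both the difference between 2 h and 4 h was 0.26, with adjusted p of 0.619 for CD82 and 0.374 for TMSB4X.

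Among the falls, IKZF2 had ratio changes of -0.14, -1.41, -0.27 and 0.54 at 1, 2, 3 and 4 h, so that 2 h lay below 1 h (-1.26 ± 0.19, adjusted p = 8.89e-05 by limma) and below 4 h (-1.95 ± 0.17, adjusted p = 1.03e-10). RAG1 had -1.24, -1.77, -1.11 and 0.02, low from 1 to 3 h. At 4 h both RNA kinds of RAG1 were still low, with 18.6 ± 4.96 in labelled and 11.8 ± 0.545 in total RNA. In unactivated cells they were 529 ± 114 and 349 ± 5.96. HK2 had 0.07, -0.92, -2.27 and -1.75, and here 2 h lay above 3 h by 1.35 ± 0.18 (adjusted p = 1.44e-05). INSIG1 had 0.73, -0.83, -1.59 and -1.58, with 2 h below 1 h (-1.56 ± 0.18, adjusted p = 1.29e-06) and above 3 h (0.76 ± 0.16, adjusted p = 0.0185). MCL1 had 0.78, -0.82, -0.41 and -0.52 and CD83 1.47, -0.16, -0.25 and -0.47, both with the ratio called up at 1 h, after which MCL1 was down and CD83 not called at 2 h. For SRF, with 0.47, -0.93, -0.81 and -1.51, the ratio at 2 h less that at 1 h was -1.40 ± 0.21 (adjusted p = 0.000145).

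**Figure D4:**
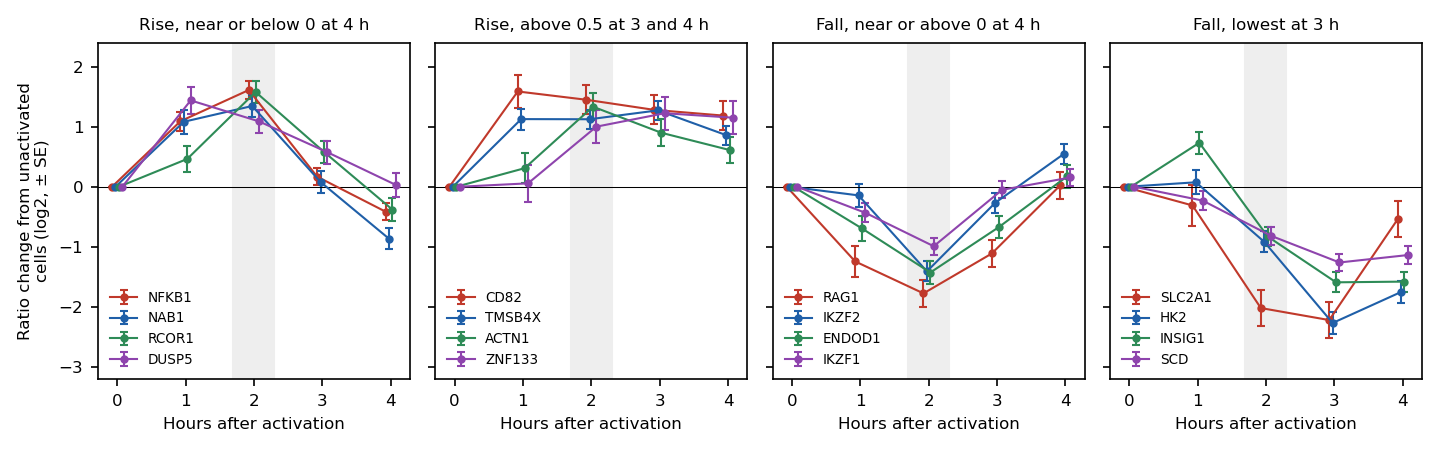
Ratio change from unactivated cells (log2 ± SE, vertical axis) at 0 to 4 h (horizontal axis) for 16 genes in 4 panels grouped by course after their values were seen; the grey band marks 2 h. NFKB1 and NAB1 peak at 2 h and lie below 0 at 4 h, CD82 and TMSB4X stay above 0.5, RAG1 and IKZF2 are lowest at 2 h, and HK2 and INSIG1 are lowest at 3 h.

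Other readouts of the called genes were compared with all genes. The median gene span was 68.7 kb for genes whose ratio rose, 50.9 kb for those whose ratio fell and 39.4 kb over all genes (GENCODE v29), and the median length of the longest transcript was 4.11, 4.20 and 3.77 kb. In the authors' deposited table, HuR iCLIP targets made up 20.7% of the genes that rose (17 of 82), 23.1% of those that fell (27 of 117) and 19.4% of all genes. A separate HuR target call in the same deposited table was yes for 22.6% (14 of 62), 14.9% (11 of 74) and 11.6% (584 of 5017) of the genes that had an entry. The decay rate in the authors' deposited table, on a natural log scale and built from the same group means, had a median of -0.362 at 2 h and -0.284 in unactivated cells for genes that rose. For genes that fell it was -0.313 at 2 h and -0.530 in unactivated cells, and over all genes -0.326 at 2 h and -0.344 in unactivated cells. It was undefined at 2 h for 6 of the 82 genes that rose, TMC6, RCOR1 and ARHGAP31 among them.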

How the data were processed

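Total RNA and 4sU-labelled RNA of Jurkat cells were sequenced. Per the submitters' processing notes, the authors' tools were TopHat2, HTSeq and edgeR, with hg19 as the genome, and no versions are named. Per the file headers, the deposited table gives the mean and SD of each group as a normalised signal on a per-million-like scale, with 0 columns for single samples. The authors' RPKM column was not used for any comparison. Decay rates are on a natural log scale and their T scores and the HuR LOD scores are scores, per the file headers. The rates and the yes-or-no HuR calls were used as deposited, and the LOD and T scores were not used. Depth is unknown because no counts are given, so precision rests on the deposited SDs of the 10 groups, with 3 samples per group, or 2 at 1 h.

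The test had been planned for single samples. With summaries alone, the limma package (version 3.58.1, R version 4.3.3) was applied to group means taken as log2(value + 1), which understates changes of low genes, and to SDs carried to that scale to first order. The 10 groups shared 1 residual variance per gene (18 degrees of freedom), which was moderated robustly along a trend with expression. The interaction and its parts were tested over all 7485 genes with Benjamini-Hochberg adjustment and a threshold of 0.05. Every adjusted p in the text comes from this limma fit unless an alternative setting is named beside it. The fit treats labelled and total RNA of 1 culture as independent. The procedure was tested first on simulated data with 1 spread per gene for all groups and independent RNA kinds. These settings are those the fit assumes, so unequal spreads and pairing were not tested.

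Named genes are the 15 largest rises and 15 largest falls among those called, up to 4 called members with the largest changes of each list with at least 5 measured members, and 18 genes named always (RAG1, RAG2, MYC, JUNB, IER3, DUSP2, DUSP5, NFKBIA, TNFAIP3, CXCR4, SELPLG, ACTB, GAPDH, ELAVL1, HSPA8, CDKN1A, MCL1 and CD83). Values of some genes that this rule takes are not reported here. The members, the gene lists and this rule were chosen with earlier results of these data known. Alternatives changed the pseudocount (0.1 or 5), the scaling, the groups in the fit, the estimate of the spread, an assumed correlation of 0.5 or -0.5 between labelled and total RNA, and a filter at a mean of 10. Gene lengths are from GENCODE v29 and promoters from RefSeq, matched by gene ID or symbol for 5843 of the 7485 genes.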

Additional observations from a re-analysis of the deposited data

Results flagged for a closer look

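The ratio of labelled to total RNA at 2 h differed from the ratio at other hours by limma in a direct test that leaves out the unactivated samples. It differed from that at 1 h for 42 of 7485 genes (0.561%), 16 higher and 26 lower at 2 h, with 2 samples per group at 1 h. It differed from that at 3 h for 38 genes (0.508%), 21 higher and 17 lower at 2 h. It differed from that at 4 h for 427 genes (5.7%), 238 higher and 189 lower at 2 h. At an unadjusted p of 0.05 the counts were 674, 692 and 1388. NFKB1 was higher at 2 h than at 3 h by 1.44 ± 0.14 and than at 4 h by 2.02 ± 0.14. IKZF2 was lower at 2 h than at all of 1, 3 and 4 h, by -1.26 ± 0.19, -1.14 ± 0.17 and -1.95 ± 0.17 on the log2 scale. Named genes were chosen by their value at 2 h, which these differences share.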

How the results depend on the processing

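The ratio change at 2 h was called for 199 genes, 82 up and 117 down. Counts of called genes ranged from 190 to 230 under pseudocounts of 0.1 and 5 and lay at 138 with only the 4 compared groups, 253 with a separate spread per RNA kind, 195 with a constant prior variance, 199 without the robust option and 191 at a mean of at least 10, which removed 276 genes. Median centring gave 155 up and 71 down, and quantile normalisation 308 called with 163 up. An assumed correlation of 0.5 between labelled and total RNA gave 759 called (258 up, 501 down), and -0.5 gave 113 (48 up, 65 down). With unmoderated SDs, a test from each gene's own SDs, the ratio gave 0 called in either direction. Before adjustment, 703 genes had p under 0.05 for the ratio by the same test. Labelled RNA gave 3 called (2 up, 1 down) and total RNA 149 (116 up, 33 down). Leaving out single samples was not run, since only means and SDs are given.

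Counts for labelled RNA (2282; 1231 up, 1051 down) and total RNA (533; 411 up, 122 down) moved with the spread. With a separate spread per RNA kind, 693 genes fell in labelled RNA and 995 changed in total RNA (727 up, 268 down). A spread weighted by group, chosen after seeing the data because variance factors ran from 0.383 for total RNA at 2 h to 2.93 for labelled RNA of unactivated cells, gave 1048 in labelled RNA (596 up, 452 down), 1630 in total RNA (1214 up, 416 down) and 143 for the ratio. Median centring left 246 and quantile normalisation 223 rises in total RNA.

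Counts at or against the other hours moved as well. Under an assumed correlation of 0.5 the ratio change was called for 256 genes at 1 h, 789 at 3 h and 788 at 4 h, and the ratio at 2 h differed from that at 1, 3 and 4 h for 168, 214 and 980 genes. Under -0.5 it was called for 102 genes at 3 h and 84 at 4 h, and the differences from 1, 3 and 4 h for 21, 17 and 213. With unmoderated SDs the ratio change was called for 0, 3 and 0 genes at 1, 3 and 4 h (273, 625 and 738 at an unadjusted p under 0.05), and the differences from 1, 3 and 4 h for 0, 1 and 79 (410, 604 and 1312). The group-weighted spread gave 102 at 3 h and 105 at 4 h, and 65 and 699 for the differences from 3 and 4 h. Median centring gave 49 at 1 h, and quantile normalisation 45 at 1 h and 363 at 3 h.

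Of the 199 calls, 91 held in all 12 alternatives other than unmoderated SDs and 0 in all 13. For named genes, 749 values kept their side of the threshold, 121 lost the call, 10 gained it and 0 called values changed sign. The cause of these moves was not tested. No paired analysis was possible because the table gives group means and SDs and no replicate values.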
